A study of Mus musculus with 6 samples.

Results

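The 3 genes of the transforming growth factor beta (TGF-beta) ligands, the 3 genes of their receptors and the 4 genes of the latent TGF-beta binding proteins were described in mouse femur after focal radiation. They were chosen by name, as Tgfb1, Tgfb2, Tgfb3, Tgfbr1, Tgfbr2, Tgfbr3, Ltbp1, Ltbp2, Ltbp3 and Ltbp4, and all 10 were found among the 43346 genes of the count table. The animals were C57BL/6 mice of 4 months, each given a single focal X-ray dose of 24 Gy (gray, the unit of absorbed dose), at 6.6 Gy per minute, over 5 mm of the distal metaphysis of the right femur. The radiated group was that right femur and the non-radiated group the left femur, so the control bones came from animals that had also been radiated in the other leg. A piece of bone just below the growth plate was taken on day 21, ahead of the bone loss seen on day 28, and freed of muscle; the labels do not say that marrow was removed. There were 3 radiated and 3 non-radiated RNA-seq libraries. The labels do not say how many animals stand behind a library, and p-values measure the spread between these libraries, which may be technical in part.

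TGF-beta ligands are secreted as latent dimers, in which the prodomain stays wrapped around the mature growth factor and is tied by disulfide bonds to a latent binding protein that anchors the complex in fibrillin microfibrils of the matrix. Integrins, thrombospondin and proteases can free the ligand, which then joins the type II receptor (Tgfbr2) and the type I receptor (Tgfbr1) into a complex that phosphorylates Smad2 and Smad3. Betaglycan (Tgfbr3) is a co-receptor that presents ligand, above all the Tgfb2 product. Bone matrix is a large store of latent TGF-beta, which osteoclasts release when they resorb it, and platelets and their megakaryocyte precursors are another known store of the Tgfb1 product.

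Total gene counts were 34034251 to 48708383 per library. The gene AY036118 took 32.9% of all counts in non-radiated library 2 and 0.321% to 5.61% in the other libraries. Radiated library 2 stood apart by skeletal muscle RNA. The summed level of 16 muscle genes was 5759 CPM (counts scaled to library size, as explained next) there, 1857 and 579 CPM in radiated libraries 1 and 3, and 435 to 818 CPM in the non-radiated libraries. CPM values are counts as a rate over the library total after scaling by the trimmed mean of M-values (TMM), which sets each gene against the bulk of the others. The tissue label was checked against 11 osteoblast and osteocyte markers, such as Bglap and Sp7. Their summed level was 1274 to 1853 CPM in non-radiated and 1158 to 1475 CPM in radiated libraries, and none was at 0. In bulk tissue, fewer cells of a type and less RNA per cell cannot be told apart.

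Of the 10 genes 5 were called by edgeR's quasi-likelihood test (Benjamini-Hochberg adjusted p under 0.05 over 18757 genes tested), 4 of them higher in radiated femur (Ltbp2, Tgfb2, Tgfb3 and Tgfbr2) and 1 lower (Ltbp1). Over all genes tested 7.80% were called, 4.56% higher and 3.24% lower. The median log2 fold change was 0.38 over the 10 genes and 0.00 over all genes tested. The 3 values of each group did not overlap for 7 of the 10 genes, against 25.9% of all genes tested. Leaving out non-radiated library 1, non-radiated library 2 or radiated library 1 brought the count of called members to 2. Leaving out radiated library 2 gave 4, and leaving out either number 3 library gave 6. With plain library totals in place of TMM the median of all genes moved to 0.19, and the count was also 2. Each of the 5 called genes kept its direction in all 14 alternative fits, and only the calls moved.

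**Figure D1:**
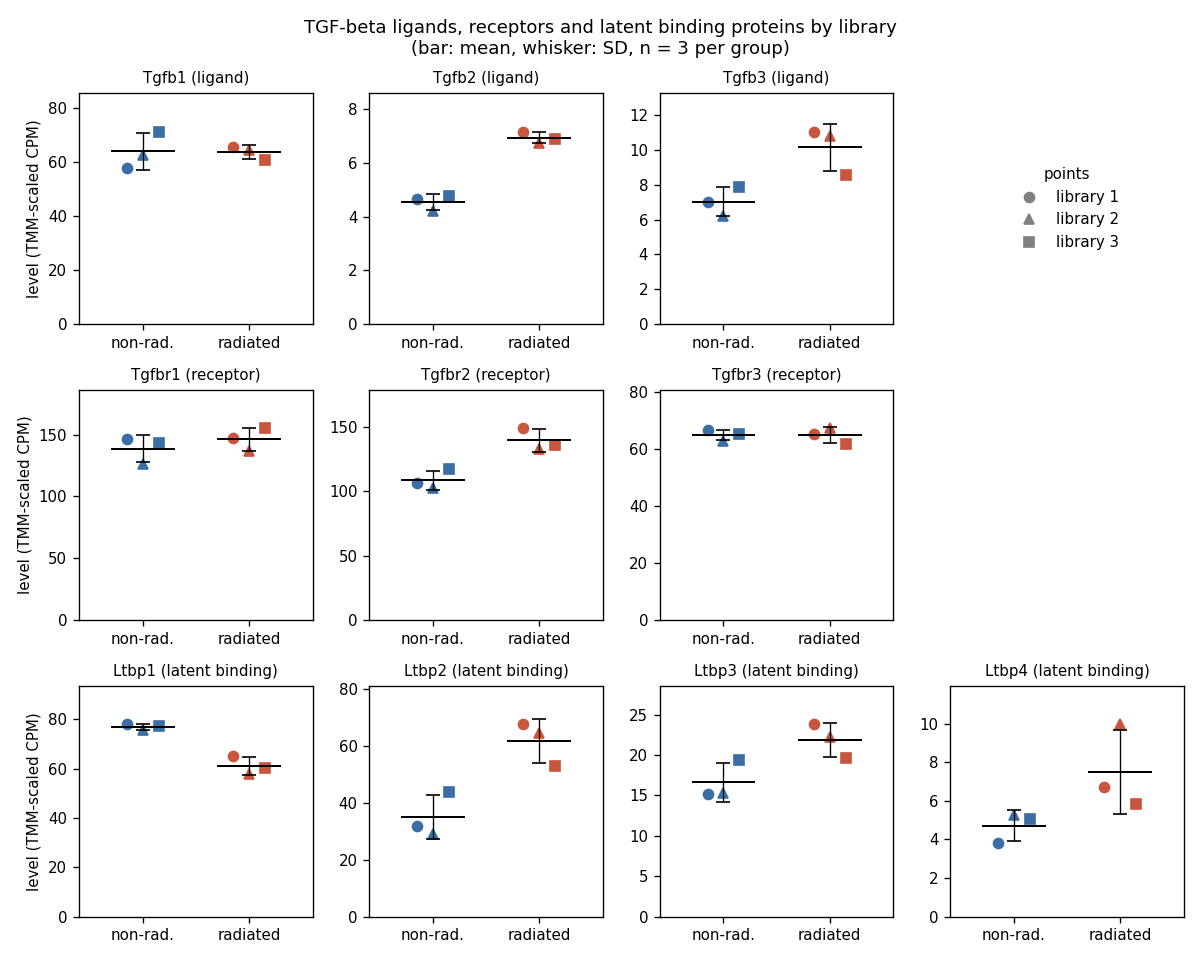
TMM-scaled CPM of each of the 10 genes in the 3 non-radiated (blue) and 3 radiated (red) libraries, with the mean (bar) and SD (whisker); symbols mark the library number and each axis starts at 0. Tgfb2, Tgfb3, Tgfbr2, Ltbp2, Ltbp3 and Ltbp4 lay higher in every radiated library, Ltbp1 lay lower, and Tgfb1, Tgfbr1 and Tgfbr3 overlapped.

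The sequences around the transcription starts of the called genes are shown because these genes changed in opposite directions. RefSeq promoter windows (build GRCm38.p6, 250 bases before to 50 after a start, 5′ to 3′) were found for 8 of the 10 genes, with none matched for Tgfb3 and Tgfbr3. Capitals mark matches on either strand. The letters searched were CAGAC for the core bound by Smads and TGACGTCA for the cyclic AMP response element. AP-1 was searched as TGANTCA and the E-box as CACGTG, while GGGCGG was taken for a GC box and TATAAA for a TATA box. These motifs were picked after the sequences had been seen, and no 2 matches overlap in the windows printed.
Ltbp2 promoter, chr12:84876442-84876741, minus strand: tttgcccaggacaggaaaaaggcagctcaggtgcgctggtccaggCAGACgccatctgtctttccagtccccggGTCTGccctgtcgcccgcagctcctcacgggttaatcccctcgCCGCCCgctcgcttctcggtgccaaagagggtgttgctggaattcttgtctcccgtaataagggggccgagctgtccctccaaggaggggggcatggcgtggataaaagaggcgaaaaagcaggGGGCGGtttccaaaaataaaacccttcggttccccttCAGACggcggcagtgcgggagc
Ltbp1 promoter, chr17:75005279-75005578, plus strand: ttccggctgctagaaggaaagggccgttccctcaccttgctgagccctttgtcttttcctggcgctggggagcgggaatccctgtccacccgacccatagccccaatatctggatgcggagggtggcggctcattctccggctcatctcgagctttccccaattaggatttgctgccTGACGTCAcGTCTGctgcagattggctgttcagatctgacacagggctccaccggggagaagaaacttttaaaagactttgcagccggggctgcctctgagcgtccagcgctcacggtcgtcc
Tgfb2 promoter, chr1:186705940-186706239, minus strand: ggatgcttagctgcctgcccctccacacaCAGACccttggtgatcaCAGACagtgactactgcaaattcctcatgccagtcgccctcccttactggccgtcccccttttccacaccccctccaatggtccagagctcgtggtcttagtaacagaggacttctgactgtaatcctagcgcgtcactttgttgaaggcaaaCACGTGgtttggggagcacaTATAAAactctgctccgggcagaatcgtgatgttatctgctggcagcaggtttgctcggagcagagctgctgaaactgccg
Tgfbr2 promoter, chr9:116175314-116175613, minus strand: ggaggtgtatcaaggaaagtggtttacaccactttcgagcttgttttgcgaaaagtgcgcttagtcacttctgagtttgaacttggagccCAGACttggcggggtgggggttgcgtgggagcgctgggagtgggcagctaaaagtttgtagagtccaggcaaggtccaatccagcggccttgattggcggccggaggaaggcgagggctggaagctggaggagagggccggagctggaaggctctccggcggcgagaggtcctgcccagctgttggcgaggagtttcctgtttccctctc
The Ltbp2 window held 3 matches to CAGAC and 2 GC boxes. The Ltbp1 window held 1 match to CAGAC and 1 cyclic AMP response element, which 1.79% of the 32851 promoter windows in the table hold. Ltbp1 has another RefSeq start, with a window at chr17:75178531-75178830, and the gene counts do not separate transcripts from these starts. The Tgfb2 window held 2 matches to CAGAC, an E-box (in 7.15% of all windows) and a TATA box (in 13.6%). The Tgfbr2 window held 1 match to CAGAC, which is in 49.6% of all windows. GC boxes are in 35.7% of all windows and AP-1 matches in 7.81%. The Tgfb1 window held 6 GC boxes and the 3 windows of Ltbp4, of which 2 overlap, held 3, 7 and 9, with no match to CAGAC in either gene. A match describes the letters only.

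Among the ligands, the 2 genes of low level rose and the dominant one stayed near its control level. Tgfb1 (ENSMUSG00000002603, chromosome 7, 25687002 to 25705077), the ligand made by most blood and bone cells, was at 57.8, 62.4 and 71.05 CPM in non-radiated libraries 1, 2 and 3 and at 65.4, 64.4 and 60.6 CPM in radiated libraries 1, 2 and 3. The radiated values lay within the range of the non-radiated ones. The fold was 0.995 with a 95% interval of 0.881 to 1.12 (edgeR adjusted p 0.970).

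Tgfb2 (ENSMUSG00000039239, chromosome 1, 186622792 to 186705989), a ligand whose prodomain lacks the integrin-binding site that the other ligands carry, was at 4.66, 4.19 and 4.77 CPM in the non-radiated libraries and at 7.16, 6.74 and 6.90 CPM in the radiated libraries. The groups were tight and well apart, at 4.54 ± 0.306 against 6.93 ± 0.210 CPM (mean ± SD, n = 3 each). EdgeR gave a log2 fold change of 0.61 with an SE of 0.11 and an adjusted p of 0.0122. The call was lost narrowly without non-radiated library 2 (log2 fold change 0.54, edgeR adjusted p 0.0529) and without radiated library 1 (0.58, edgeR adjusted p 0.0546). It rested on 105 to 202 counts in non-radiated and 271 to 360 counts in radiated libraries.

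Tgfb3 (ENSMUSG00000021253, chromosome 12, 86056744 to 86079041), a ligand known from palate and cartilage, was at 7.02, 6.23 and 7.86 CPM in the non-radiated libraries and at 11.04, 10.8 and 8.58 CPM in the radiated libraries. Radiated library 3 lay much nearer to the non-radiated range than the other radiated libraries did. The means were 7.04 ± 0.815 and 10.1 ± 1.36 CPM (mean ± SD, n = 3 each). EdgeR gave a log2 fold change of 0.52 with an SE of 0.14 and an adjusted p of 0.0479. This call was at the edge of the threshold. With the replicate number as a block it was not called (log2 fold change 0.52, edgeR adjusted p 0.0606), nor without non-radiated library 1 (edgeR adjusted p 0.130) or 2 (0.161) or radiated library 1 (0.164) or 2 (0.123). Tgfb3 overlaps Ttll5 on the opposite strand, which had 1110 to 2350 counts per library, more than Tgfb3 itself at 156 to 577. The strand setting of the counting is not given in the sources used here.

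Of the receptors, the type II receptor gene rose and the other receptor genes did not pass the test. Tgfbr2 (ENSMUSG00000032440, chromosome 9, 116087698 to 116175363), which binds the ligand first, was at 106, 102 and 117 CPM in the non-radiated libraries and at 149, 133 and 136 CPM in the radiated libraries. The lowest radiated value stood above the highest non-radiated value. The means were 108 ± 7.58 and 139 ± 8.57 CPM (mean ± SD, n = 3 each). EdgeR gave a log2 fold change of 0.36 with an SE of 0.07 and an adjusted p of 0.0124. The call was lost without non-radiated library 1 (log2 fold change 0.34, edgeR adjusted p 0.0526), non-radiated library 2 (0.31, 0.0647) or radiated library 1 (0.31, 0.0555).

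Tgfbr1 (ENSMUSG00000007613, chromosome 4, 47353222 to 47414931), the kinase that phosphorylates the Smads, was at 147, 126 and 143 CPM in the non-radiated libraries and at 147, 137 and 155 CPM in the radiated libraries. The groups overlapped, with a fold of 1.06, a 95% interval of 0.943 to 1.18 and an edgeR adjusted p of 0.603. Tgfbr3 (ENSMUSG00000029287, chromosome 5, 107106570 to 107289629), the betaglycan gene, was at 66.6, 63.0 and 65.4 CPM in the non-radiated libraries and at 65.5, 67.5 and 62.0 CPM in the radiated libraries. Its fold was 0.999, with a 95% interval of 0.917 to 1.09 (edgeR adjusted p 0.991). The signs of the Tgfb1 and Tgfbr3 fold changes, both near 0, turned under library totals alone and without single libraries.

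The latent binding proteins moved apart. Ltbp1 (ENSMUSG00000001870, chromosome 17, 75005568 to 75392512), which binds the latent complex of every ligand and is the form most studied as its carrier, was at 78.0, 75.5 and 77.3 CPM in the non-radiated libraries and at 65.2, 57.9 and 60.1 CPM in the radiated libraries. The non-radiated values were close together, and every radiated value lay below them. The means were 76.9 ± 1.31 and 61.1 ± 3.77 CPM (mean ± SD, n = 3 each). EdgeR gave a log2 fold change of -0.33 with an SE of 0.06 and an adjusted p of 0.00874. The call held without each library in turn and was lost only under library totals alone (log2 fold change -0.14, edgeR adjusted p 0.783).

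Ltbp2 (ENSMUSG00000002020, chromosome 12, 84783212 to 84876532), a microfibril protein of the same family that does not bind the latent ligand, had the largest fold change of the 10 genes with all 6 libraries, though Ltbp4 was above it without non-radiated library 2 (0.75 against 0.69) and without radiated library 1 (0.75 against 0.74). It was at 32.0, 29.1 and 43.8 CPM in the non-radiated libraries and at 67.5, 64.4 and 52.9 CPM in the radiated libraries. The number 3 libraries were the highest of the non-radiated and the lowest of the radiated group. The means were 34.95 ± 7.79 and 61.6 ± 7.70 CPM (mean ± SD, n = 3 each). EdgeR gave a log2 fold change of 0.81 with an SE of 0.15 and an adjusted p of 0.0106. Without non-radiated library 1 the adjusted p was 0.0510 (log2 fold change 0.75), and the call held without each of the other libraries.

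Ltbp3 (ENSMUSG00000024940, chromosome 19, 5740904 to 5758532), which binds latent ligand and is needed for normal bone growth, was at 15.2, 15.3 and 19.4 CPM in the non-radiated libraries and at 23.8, 22.2 and 19.7 CPM in the radiated libraries. The groups came close at number 3, where the log2 difference was 0.02, against 0.65 and 0.54 for numbers 1 and 2. The log2 fold change of 0.40 (SE 0.12) was not called (edgeR adjusted p 0.0724), but it was called with DESeq2's Wald test (adjusted p 0.0159), with no filter on low counts (0.0239) and without non-radiated library 3 (log2 fold change 0.52, edgeR adjusted p 0.0193).

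Ltbp4 (ENSMUSG00000040488, chromosome 7, 27305136 to 27337692), a form tied to elastic fibres, was the least counted of the family, at 3.81, 5.27 and 5.07 CPM in the non-radiated libraries and at 6.74, 9.98 and 5.85 CPM in the radiated libraries. Radiated library 2 stood well above the rest. The log2 fold change of 0.68 (SE 0.21) was not called (edgeR adjusted p 0.0911), and was 0.42 without radiated library 2 (edgeR adjusted p 0.241). With the replicate number as a block it was called (log2 fold change 0.64, edgeR adjusted p 0.0422), as it was without radiated library 3 (0.83, edgeR adjusted p 0.0451). The summed level of the 16 muscle genes was also highest in radiated library 2. None of the 16 was at 0 or called by edgeR, DESeq2 or limma-voom, though all 16 had an unadjusted edgeR p under 0.05, and 13 were called with the replicate block and 16 with no filter or with library totals. Leaving out radiated library 3 gave 12 called muscle genes, leaving out radiated library 1 gave 2, and leaving out any other library gave 0. The part of muscle RNA in the Ltbp4 result was not tested.

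**Figure D2:**
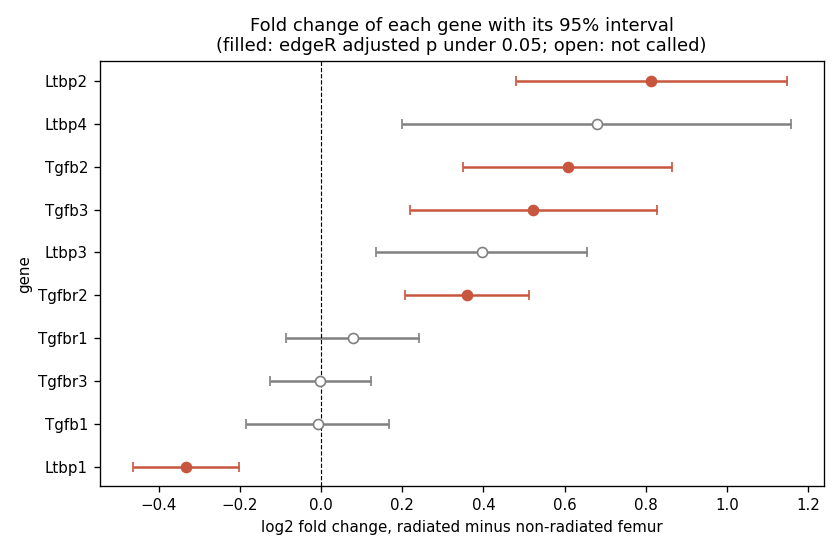
Log2 fold change (x axis, radiated minus non-radiated) of the 10 genes with 95% intervals that are not adjusted for the number of genes; filled points were called by edgeR. Ltbp2 is at 0.81 and Ltbp1 at -0.33, and the intervals of Tgfb1, Tgfbr1 and Tgfbr3 cross 0.

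Levels of different genes were compared as TMM-scaled CPM per kilobase of the gene length in the table. In non-radiated femur the order was Tgfb1 (24.9 ± 2.63), Tgfbr2 (22.7 ± 1.58), Tgfbr1 (21.2 ± 1.69), Tgfbr3 (9.94 ± 0.280), Ltbp1 (7.34 ± 0.125), Ltbp2 (4.27 ± 0.952), Ltbp3 (3.20 ± 0.464), Tgfb3 (2.08 ± 0.241), Tgfb2 (0.784 ± 0.0529) and Ltbp4 (0.730 ± 0.122), in CPM per kilobase (mean ± SD, n = 3). The libraries of Tgfb1 and Tgfbr2, of Tgfbr2 and Tgfbr1, of Ltbp2 and Ltbp3 and of Tgfb2 and Ltbp4 overlapped, so these neighbours were not separated. In radiated femur Tgfbr2 was first, at 29.1 ± 1.79 CPM per kilobase, and separated from Tgfb1 at 24.8 ± 0.990. Ltbp2, at 7.53 ± 0.941, stood above Ltbp1, at 5.83 ± 0.360, with no overlap, where in non-radiated femur Ltbp1 was above Ltbp2. The table's lengths of Tgfb1, Tgfbr2 and Ltbp3 are 0.507, 0.584 and 0.572 of the summed exon length in GENCODE M21. With the GENCODE lengths Tgfbr1 was first and Tgfb1 the third in both groups, and the exchange of Ltbp1 and Ltbp2 was the same.

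Shares within a class do not depend on how libraries are scaled. Ltbp1 made up 50.1%, 49.6% and 42.7% of the summed level per kilobase of the 4 latent binding proteins in the non-radiated libraries and 31.0%, 28.7% and 33.9% in the radiated libraries. Ltbp2 made up 26.3%, 24.5% and 31.0% of it in the non-radiated libraries and 41.0%, 40.9% and 38.3% in the radiated libraries. Per kilobase, the leading latent binding protein gene was Ltbp1 in each non-radiated library and Ltbp2 in each radiated library. In CPM not divided by length, Ltbp1 was above Ltbp2 in radiated library 3 (60.1 against 52.9). It was below Ltbp2 in radiated libraries 1 (65.2 against 67.5) and 2 (57.9 against 64.4). The mean share of Ltbp1 fell by 16.3 percentage points and that of Ltbp2 rose by 12.8, each with a two-sided exact permutation p of 0.1, the smallest that 3 against 3 allows (0.125 adjusted over the 10 shares).

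Tgfb1 made up 88.7% to 90.5% of the ligand level in non-radiated and 85.0% to 86.4% in radiated libraries. The share of Tgfb2 went from 2.84% ± 0.282 to 4.13% ± 0.203 and that of Tgfb3 from 7.49% ± 0.662 to 10.3% ± 0.914 (mean ± SD, n = 3 each). Neither overlapped between groups, and each had an exact permutation p of 0.1. Tgfbr2 went from 42.1% ± 1.49 to 47.4% ± 1.44 of the receptor level, also with an exact permutation p of 0.1. All 10 shares kept their sign without each library, with raw counts and with the GENCODE lengths. Under the GENCODE lengths, Tgfb1 was 81.5% of the ligand level in non-radiated and 75.0% in radiated libraries.

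**Figure D3:**
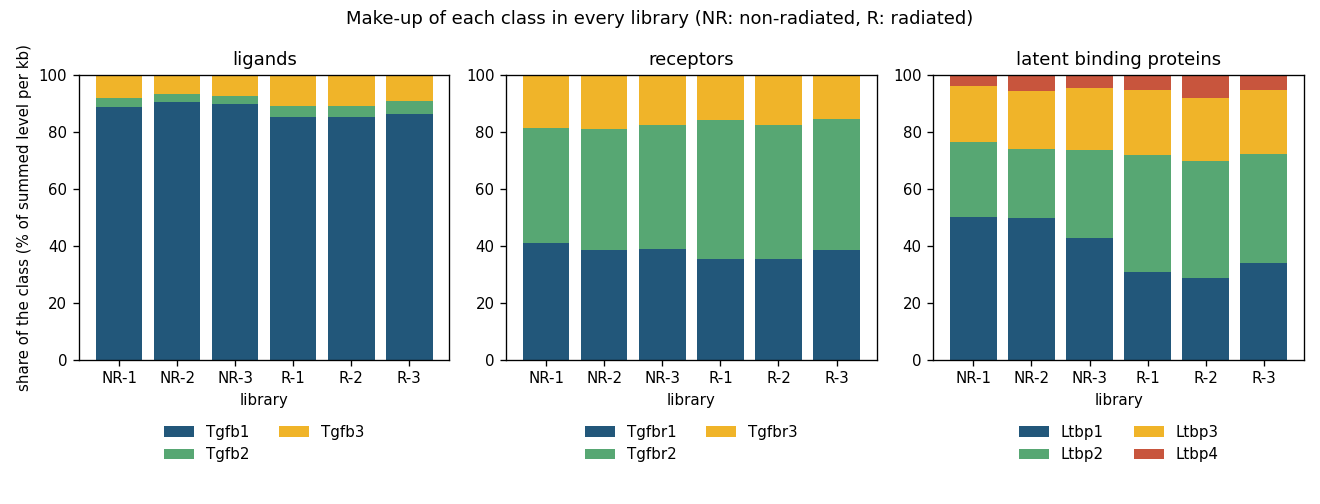
Share of each gene in the summed level per kilobase of its class (y axis, percent), for non-radiated (NR) and radiated (R) libraries 1 to 3 on the x axis. The Ltbp1 segment is 42.7% to 50.1% of the latent binding proteins in non-radiated and 28.7% to 33.9% in radiated libraries.

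Other genes of the pathway were taken from 5 lists written by function, with 78 genes, of which 75 passed the filter on low counts. Of these 17 were called, 13 higher and 4 lower, with a median log2 fold change of 0.14. Over all genes tested 7.80% were called, 4.56% higher and 3.24% lower, with a median of 0.00. In the list of genes that free or anchor latent TGF-beta, 5 of 15 tested were called, 2 higher and 3 lower, with a median of 0.11. The 3 that fell were Itgb3, Thbs1 and Lrrc32, and each was called in all 14 alternatives. Itgb3, the beta 3 integrin subunit, was at 631, 619 and 661 CPM in the non-radiated libraries and 301, 309 and 288 CPM in the radiated libraries (log2 fold change -1.09, SE 0.06, edgeR adjusted p 1.43e-05). Thbs1, the thrombospondin that activates latent TGF-beta and is stored in platelet granules, had a log2 value of -0.96 (edgeR adjusted p 2.29e-05). Lrrc32, which holds latent ligand on the surface of platelets and regulatory T cells, was at -1.03 (edgeR adjusted p 0.000573).

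Megakaryocyte markers moved with these 3 genes. All 14 genes of a marker list that shares no gene with the 5 lists were called lower, at a median of -1.43 on the log2 scale, with a summed level of 1532 to 1596 CPM in non-radiated and 532 to 622 CPM in radiated libraries, and none was at 0. Itga2b, Clec1b and Tubb1 had the smallest p-values among them (log2 fold changes -1.41, -1.45 and -1.47). Over the same libraries the fold of Tgfb1 was 0.995, as given above. The part of the megakaryocyte lineage in the levels of Itgb3, Thbs1, Lrrc32 and Tgfb1 was not tested. In the list of genes that free or anchor latent TGF-beta, the 2 called higher were the proteases Mmp2, at 50.8 ± 7.16 against 100.01 ± 9.52 CPM (mean ± SD, n = 3 each; log2 fold change 0.98, edgeR adjusted p 0.000679), and Plau, the urokinase gene (0.47, edgeR adjusted p 0.00730). DESeq2's Wald test called 8 genes of that same list, 4 in each direction.

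In the list of microfibril and anchoring matrix genes 4 of 15 tested were called, all higher, and 13 of 15 had positive values, with a median of 0.39. Fbn1, the fibrillin to which latent binding proteins attach, was at 87.8, 82.8 and 87.7 CPM in the non-radiated libraries and 144, 131 and 120 CPM in the radiated libraries (log2 fold change 0.61, SE 0.07, edgeR adjusted p 0.00108), and was called in all 14 alternatives. Fbln1 (0.88) was not called when non-radiated library 2, non-radiated library 3 or radiated library 1 was left out. Among the fits that left a library out, Efemp1 (0.69) kept its call only without radiated library 3. Mfap5 (2.42) kept it there only without radiated library 1 or 3, and limma-voom called neither gene. Over all alternatives Efemp1 was called in 8 of 14 and Mfap5 in 8 of 13. The count fell to 1 without non-radiated library 2 or 3 and to 2 without non-radiated library 1, without radiated library 1 or 2 and with limma-voom. Mfap5 was highest in radiated library 2, at 1.93 CPM against 0.660 and 0.493 in radiated libraries 1 and 3, and muscle RNA was also highest there.

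No gene was called in the list of co-receptors, Smads and the TAK1 arm of the pathway, where edgeR tested 9, found 0 at an unadjusted p under 0.05, and DESeq2 and limma-voom called 0. Their log2 fold changes lay between -0.10 and 0.16. Smad2, Smad3 and Smad4 were at -0.01, -0.10 and -0.01. Eng, a co-receptor, was at 0.14, and Acvrl1, a type I receptor that this list also holds, was at 0.16. In the list of inhibitors 3 of 19 were called, all higher, with a median of 0.14. They were Fmod, a matrix proteoglycan that binds TGF-beta (1.15, edgeR adjusted p 0.0105), Bgn, another such proteoglycan (0.47, edgeR adjusted p 0.0267), and Pmepa1, which holds back Smads (0.47, edgeR adjusted p 0.0489). Fmod was called in all 14 alternatives. Leaving out non-radiated library 1, non-radiated library 2 or radiated library 1 brought the count to 1, where Bgn and Pmepa1 lost their calls, and Pmepa1 lost it whichever library was left out. The count rose to 5 with no filter and to 6 with DESeq2's Wald test, 5 higher and 1 lower. Smurf1 (0.29, edgeR adjusted p 0.0603) and Tgif1 (0.33, edgeR adjusted p 0.0777) were not called in the main fit. Both were called with no filter and with DESeq2's Wald test, and Smurf1 also without either number 3 library. Smad7 and Skil, induced inhibitors of the pathway, were at 0.23 and 0.11 and not called (edgeR adjusted p 0.260 and 0.459).

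Of 17 tested target genes 5 were called, 4 higher and 1 lower, with a median of 0.25. Among those that rose were Tagln and Acta2, genes of the contractile cytoskeleton, and Cyr61, a matricellular protein, and each of these was called in all 14 alternatives. Acta2 was at 3.57, 2.48 and 4.11 CPM in the non-radiated libraries and 12.4, 11.1 and 10.4 CPM in the radiated libraries (log2 fold change 1.72, SE 0.17, edgeR adjusted p 0.000517). Tagln rose by 2.40 (edgeR adjusted p 0.000446) and Cyr61 by 0.79 (0.00958) on the log2 scale. Tagln, Acta2 and Cyr61 were higher in each radiated library than in each non-radiated library. Col1a1, the main bone collagen, was at -0.61 on the same scale (edgeR adjusted p 0.0470), a call that held without non-radiated library 2 but was lost without each of the other libraries and under library totals. Targets often used as a readout of the pathway did not pass the test, with Tgfbi at -0.08, Ctgf at 0.41, Postn at 0.35 and Timp1 at 0.32 on the log2 scale (edgeR adjusted p 0.657, 0.215, 0.507 and 0.239).

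**Figure D4:**
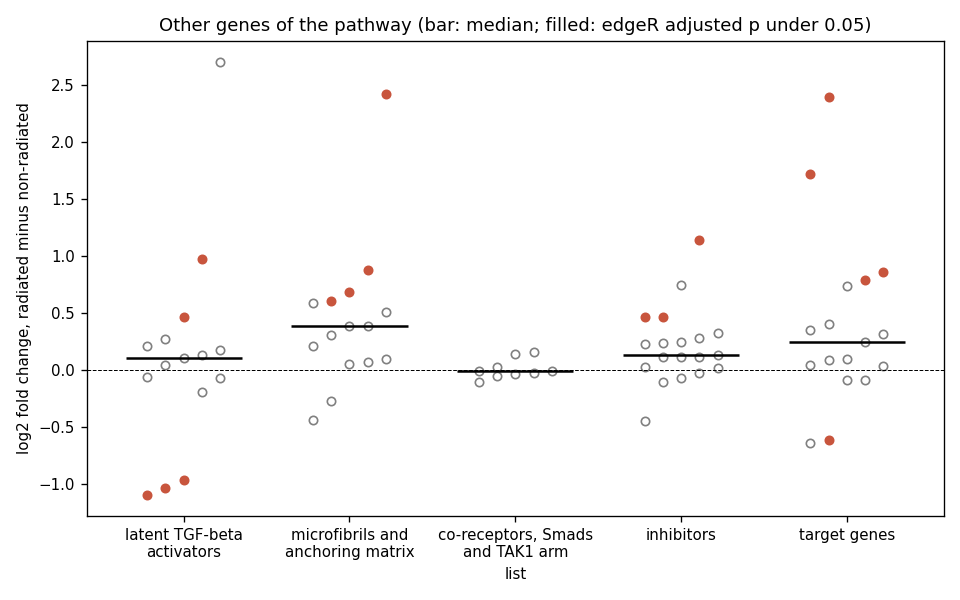
Log2 fold change (y axis, radiated minus non-radiated) of each tested gene in the 5 pathway lists (x axis), with the median of each list as a bar; filled points were called by edgeR. The 3 filled points near -1 among the activators are Itgb3, Thbs1 and Lrrc32, and no point is filled in the list that holds the co-receptors and Smads.

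Some markers of other cells in the piece of bone also differed between groups. Their counts stand beside the 7.80% of all genes tested that were called, 4.56% higher and 3.24% lower. Of 11 adipocyte genes 10 were called, all higher, and their summed level was 226 to 240 CPM in non-radiated and 629 to 902 CPM in radiated libraries. All 8 B cell genes were called higher (467 to 527 against 767 to 970 CPM), and of 9 macrophage genes 6 were called higher and 1 lower (852 to 905 against 1023 to 1205 CPM). Of 11 osteoblast and osteocyte genes 3 were called lower, and of 7 marrow stroma genes 2 were called lower (1378 to 1409 against 1055 to 1194 CPM). Of 9 endothelial genes 2 were called lower and none higher, and the sums overlapped. The values of this endothelial list were mixed, with 5 positive and 4 negative, a median of 0.20 and 5 at an unadjusted edgeR p under 0.05. With no filter, DESeq2's Wald test or the replicate block, 1 endothelial gene was called higher and 2 lower. Of 9 chondrocyte genes 1 was called lower, of 8 neutrophil genes edgeR called 0, with 8 at an unadjusted p under 0.05, 4 called lower with the replicate block, 5 with no filter, 8 by DESeq2's Wald test and 2 by limma-voom, and of 5 tested tendon and fascia genes Thbs4 was called higher (log2 fold change 2.02). No gene of these lists was at 0 in every library. The part of these cells in the levels of the 10 genes was not tested.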

How the data were processed

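mRNA-seq libraries of mouse femur, 3 radiated and 3 non-radiated, were analysed. The counts deposited by the authors are raw whole-number counts per gene, per the file headers. The deposited RPKM values imply library sizes of 5.55 to 6.91 times the summed gene counts, for which the sources used here give no reason, so RPKM entered no test. STAR 2.5.2b, Subread, featureCounts and mm10 are named per the submitters' processing notes, and the strand setting is not given in the sources used here. Of the 10 members, 8 have the same start and end in GENCODE M21. The library kit keeps strand, per the labels' protocols.

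The test was edgeR 4.0.16 (R 4.3.3) on these counts, with filterByExpr (minimum count 10, minimum total 15), TMM, glmQLFit and glmQLFTest with the group as the only term, and Benjamini-Hochberg adjustment over 18757 genes. The standard error is the log2 fold change divided by the square root of F, and the biological coefficient of variation was 12.9%. For shares within a class all 20 labelings were enumerated in a two-sided exact permutation test. The 14 alternatives were DESeq2 1.42.0 size factors and Wald test, library totals, AY036118 left out, no filter, a mean of at least 1 CPM, limma-voom (limma 3.58.1), the replicate block, and each library left out. GENCODE exon lengths were added after seeing the data. The code was tested on simulated data.

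Named were all 10 members, up to 5 genes per pathway list and up to 3 per marker list by smallest unadjusted p. Bglap and Sp7 were named outside this rule, as examples of the markers in the tissue check. Smad2, Smad4, Smad7, Skil, Tgfbi, Ctgf, Postn and Timp1 were chosen after their values were seen. All 197 list entries were found, 1 by gene ID; a gene that the rule names among the targets is not reported here. The members and lists were chosen with earlier results of these data known. Replicate numbers were checked for pairing: deviations from group means correlated at 0.166, 0.277 and 0.187 for the same number and at -0.170 to -0.00824 for different numbers, across genes, which are not independent. By this check, not by the labels, the numbers may pair the libraries. Only the replicate block used such a pairing. The main fit and the permutation of shares treated the libraries as unpaired, so their p-values leave any pairing out. Replicates within a group differed beyond sampling noise (chi-square per degree of freedom 16.6 to 580).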

Additional observations from a re-analysis of the deposited data

How the results depend on the processing

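Of the 140 alternative values of the 10 genes' fold changes, 109 kept their sign and their side of the threshold. Under library totals alone the values were 0.79 for Tgfb2, 0.70 for Tgfb3, 0.54 for Tgfbr2 and -0.14 for Ltbp1, all no longer called, 0.89 for Ltbp4, now called, and 0.18 for Tgfb1 and 0.19 for Tgfbr3, which changed sign, as did Smad3 (0.092), Map3k7 (0.143) and Tab2 (0.162); the called members were 2. Tgfbr3 was at 0.0025 with a mean of at least 1 CPM. With no filter Ltbp3 (0.40) and Ltbp4 (0.68) were called, as with DESeq2's Wald test (0.39 and 0.67). Tgfb3 was not called with limma-voom (0.50). With the replicate block Tgfb3 (0.52) was not called, Ltbp4 (0.64) was, and no other call among the 10 genes changed; the pairing rests on the data and not on the labels. Without each library in turn the ranges were -0.076 to 0.073 for Tgfb1, 0.54 to 0.64 for Tgfb2, 0.43 to 0.63 for Tgfb3, 0.31 to 0.41 for Tgfbr2, -0.037 to 0.030 for Tgfbr3, 0.69 to 1.01 for Ltbp2, 0.33 to 0.52 for Ltbp3, 0.42 to 0.83 for Ltbp4, 2 to 6 called members, 764 to 1376 called genes over all genes tested and 12 to 19 called genes in the pathway lists. The cause was not tested; fewer libraries enter these fits. Tgfb2, Tgfb3 and Ltbp4 had 105 to 577 counts per library, the fewest of the 10 genes.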
